A study of Rattus norvegicus with 6 samples.

Results

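Pkhd1, Cfap210, Kif19, Celsr1, Dcdc2 and Syt15 are 6 of the 28282 gene symbols counted in nuclei of the rat ileum. They were chosen because each was lower in every rat with severe acute pancreatitis (SAP) than in every control rat (CON), with little spread within a group. That difference is therefore a description here and carries no test, and the choice set no numeric threshold. Nuclei came from the ileum of 6 wild-type male Sprague-Dawley rats, and each rat gave 1 library. The study does not state whether the libraries were prepared together. The rats were 6 weeks old when obtained and were then acclimatized. They were killed 24 h after surgery, having had water but no food since. In the 3 SAP rats 3% sodium taurocholate was run backwards into the pancreatic duct under pentobarbital, at 0.1 mL per 100 g of body weight and 0.1 mL per min, and the duct was clamped for 5 min. The 3 CON rats had a sham laparotomy with no infusion and so share the laparotomy with the SAP rats. The study states no duct puncture or clamp for them, so these cannot be told apart from the taurocholate. The infused organ is the pancreas, and the organ measured is the ileum, where the study reported villus collapse and epithelial necrosis in SAP rats. The ileal enterocyte genes Slc10a2 and Fabp6 were among the leading genes of 2 of the 3 enterocyte-like clusters.

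The genes belong to 3 kinds of cell machinery. A primary cilium is a single sensory rod on many cells, while motile cilia beat and carry inner proteins along their microtubules, and crypts and villi of the intestine are not known for beating cilia. Fibrocystin, the product of Pkhd1, and the doublecortin-domain protein of Dcdc2 are known from the primary cilium, and loss of Pkhd1 causes recessive polycystic kidney disease. Cfap210 encodes a protein inside the microtubules of motile cilia, and Kif19 a kinesin that shortens microtubules at the tips of motile cilia. Celsr1 is an atypical cadherin of planar cell polarity, by which cells of a sheet align with their neighbours. Syt15 is a member of the synaptotagmins, membrane proteins of vesicle traffic.

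The letters before the genes' start sites are shown first for Pkhd1 and Cfap210, since both were highest in the same group of nuclei. The 250 bases upstream of each start were taken from RefSeq on GRCr8, which matched 4 of the 6 genes, and Celsr1 and Kif19 had no entry. The first lies at chr9:30533835-30534084 and the second at chr3:74962498-74962747, both on the minus strand, and each is written 5′ to 3′ toward the gene. Capitals mark the CpG sites.
Pkhd1: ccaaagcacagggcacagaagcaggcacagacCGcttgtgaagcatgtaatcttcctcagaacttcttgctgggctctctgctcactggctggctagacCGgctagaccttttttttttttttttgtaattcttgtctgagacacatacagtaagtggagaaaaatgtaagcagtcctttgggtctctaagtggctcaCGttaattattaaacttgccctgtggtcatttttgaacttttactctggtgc
Cfap210: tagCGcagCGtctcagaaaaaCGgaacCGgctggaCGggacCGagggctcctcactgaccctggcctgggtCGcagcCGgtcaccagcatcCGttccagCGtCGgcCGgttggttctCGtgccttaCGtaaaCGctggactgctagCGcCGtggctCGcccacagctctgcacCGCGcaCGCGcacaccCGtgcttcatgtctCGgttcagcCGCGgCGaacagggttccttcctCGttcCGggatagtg
The 2 windows differed in base composition. The Pkhd1 window had a GC content of 44.0% and 3 CpG sites, and the Cfap210 window 65.2% and 29 CpG sites, beside a median of 51.2% and 5 sites over all 33469 upstream windows of this length. The Dcdc2 window had 68.4% and 23 sites, and the Syt15 window 67.6% and 8 sites. The motifs of gut and cilium transcription factors listed next were searched on both strands of the 4 windows. None of those listed was found, which says only that their letters are not there and nothing of other motifs. Part of the X-box bound by RFX factors, GTTGCC, occurred in 9.89% of all windows. For the GATA motif AGATAA the share was 10.3%. For the forkhead motif TGTTTAC it was 3.21%. The HNF4 motif CAAAGTCCA occurred in 0.338%. For the CDX motif TTTATGG it was 2.70%.

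Levels are given as CPM, the UMIs (unique molecular identifiers, 1 per captured transcript) of the gene per 1000000 UMIs of the same nuclei and library. Of 90461 barcodes, 40970 passed the study's limits on UMIs, genes and mitochondrial share. Passing nuclei numbered 6260 to 9246 per CON library and 3189 to 7893 per SAP library, with 5549260 to 28771508 UMIs. SAP rat 1 had the fewest, with 12.2% of its barcodes passing. Its barcode list went down to 502 UMIs and that of CON rat 2 (26.2% passing) to 545. The other lists stopped at 1000, so these percentages are not comparable. The median mitochondrial share was 0.700%, 0.125% and 0.218% in CON rats 1, 2 and 3. It was 1.84%, 1.29% and 0.387% in SAP rats 1, 2 and 3. An alternative limit of 1% kept 384 nuclei of SAP rat 1 and 1908 of SAP rat 2. The 8 Paneth markers summed to 92606 CPM in CON rat 1 and 57930 in SAP rat 1 and to 4416 to 7276 in the other 4 libraries. Barcodes are serial names, not sequences, so the 195 to 746 names that pairs of libraries share do not show shared nuclei.

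All 6 genes stood lower in each SAP rat than in each CON rat. Over all nuclei 9.06% of 19187 tested genes did so after TMM scaling (4.79% with library totals) and 4.9% were higher without overlap, shares from which nothing is read since the genes were chosen for it. Cfap210 was at 15.8, 26.8 and 18.2 CPM in CON rats 1, 2 and 3 and at 4.87, 3.87 and 4.68 in SAP rats 1, 2 and 3. The SAP rats lay close together and far below the lowest CON rat. Pkhd1 was at 21.9, 32.0 and 39.0 in CON and 5.95, 7.23 and 14.7 in SAP, where SAP rat 3 was the highest. Kif19 was at 21.8, 49.1 and 41.3 in CON and 14.8, 13.6 and 19.7 in SAP. Here SAP rat 3 came near CON rat 1, so the gap between the groups was the narrowest of the 6.

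Celsr1, the most abundant of the 6, was at 59.4, 83.8 and 54.6 CPM in CON and 13.9, 13.3 and 29.4 in SAP. Dcdc2 was at 16.0, 14.7 and 14.8 in CON and at 4.32, 3.16 and 6.23 in SAP. Syt15 was at 11.6, 14.6 and 8.76 in CON and 1.80, 1.61 and 2.62 in SAP. The SAP value of Syt15 in rat 1 rests on 10 UMIs (exact binomial 95% interval 0.864 to 3.31 CPM, counting error only). SAP rat 3 was thus the highest SAP rat for Pkhd1, Kif19, Celsr1, Dcdc2 and Syt15, and SAP rat 1 for Cfap210.

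**Figure D1:**
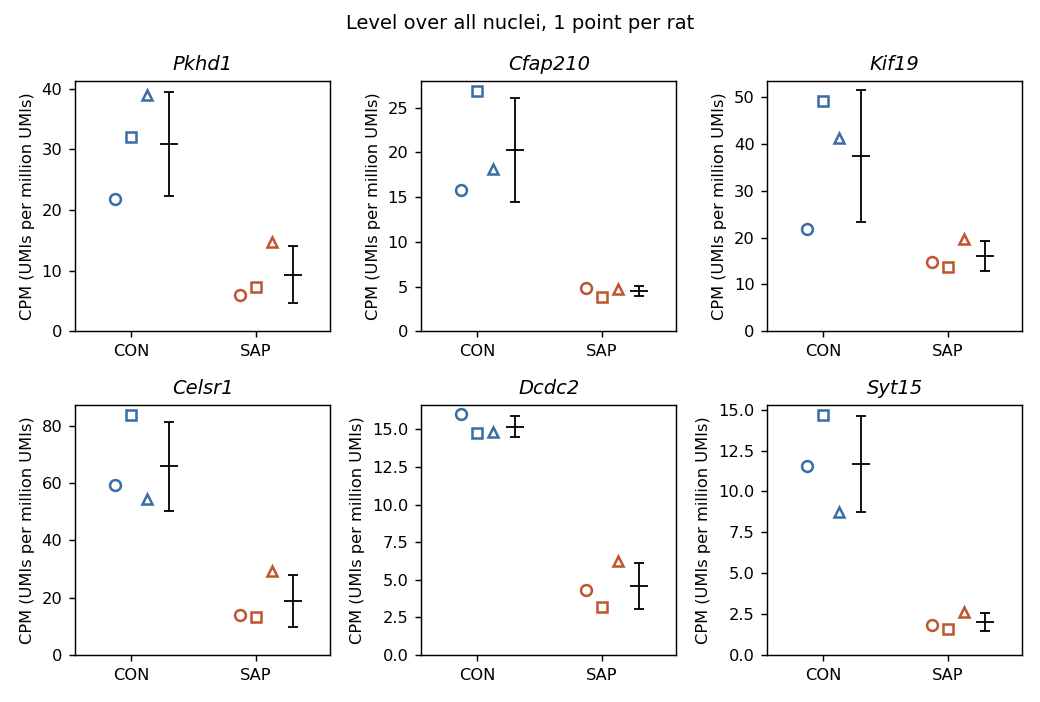
Level of each of the 6 genes over all passing nuclei, in CPM, with 1 point per rat (circle, square and triangle for rats 1, 2 and 3) and the mean and SD of the 3 rats in black. Every SAP point lies below every CON point in all 6 panels, with the narrowest gap for Kif19, at 19.7 against 21.8.

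The fit over all genes (edgeR quasi-likelihood with TMM scaling) put the log2 fold change of SAP over CON at -2.62 (SE 0.43) for Syt15, -2.19 (SE 0.37) for Cfap210 and -1.91 (SE 0.33) for Celsr1. It was -1.82 (SE 0.36) for Dcdc2, -1.78 (SE 0.30) for Pkhd1 and -1.20 (SE 0.29) for Kif19. SEs here and below were worked out from the log2 fold change and the F statistic of the quasi-likelihood test. After TMM scaling the Pkhd1 level was 30.3 ± 2.01 in CON (SD, n = 3) against 8.74 ± 2.25 in SAP, so the CON rats lay closer together than before it (SD 8.60). The CON SD went the other way for Dcdc2, from 0.695 to 4.34, for Syt15, from 2.94 to 4.28, and for Celsr1, from 15.6 to 19.98. How tight a group is thus depended on the scaling. No gene of 19187 was called at an adjusted p under 0.05 and a log2 change of at least 0.5 by edgeR (0% called), while 1618 had an unadjusted p under 0.05 and DESeq2 called 193. Of those 1618, 857 were lower in SAP and 761 higher, and with library totals in place of TMM 457 were lower and 608 higher. With library totals 919 genes were lower without overlap, against 1738 with TMM, and 869 were higher, against 941. In sums over all nuclei, fewer nuclei of a kind and less RNA per nucleus cannot be told apart.

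Nuclei were therefore grouped into 21 classes by clustering from which the 6 genes were left out, and 16 classes had at least 10 nuclei in every library. Pkhd1, Cfap210 and Kif19 were concentrated in 1 small group, cluster 8, of 1389 nuclei. It held 54.7% of the Pkhd1 UMIs of the CON rats, 55.5% of those of Cfap210 and 63.3% of those of Kif19. In CON the level of Pkhd1 there was 388 CPM against 13.9 in all other nuclei, that of Cfap210 was 250.3 against 8.67 and that of Kif19 was 510.1 against 12.8. Cluster 8 carried the stem cell marker Lgr5 (396 against 59.0 CPM) and the Paneth markers Mmp7 (773 against 248) and Habp2 (502 against 19.7). The stem marker Olfm4 was lower there (183 against 296 CPM). The Paneth markers Defa24 (24575 against 20137) and Lyz2 (1100 against 817) were raised less. Cluster 8 was left unnamed. Its other leading genes were Gfra4, a receptor of the GDNF family, Samd5, Scube1 and LOC102551027. Scrublet had marked 9.94% of its nuclei among the 5% highest-scoring of each library, and the part of doublets in these levels was not tested.

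Celsr1, Dcdc2 and Syt15 followed another map. Among the 16 classes Celsr1 was highest in stem/TA-like nuclei (stem and dividing crypt cells), at 118 ± 5.06 CPM in CON (SD, n = 3), and in tuft-like nuclei, at 113 ± 13.7, which did not differ beyond their spread. Cluster 14, an unnamed group led by LOC102546709 and Cadm2, at 98.7 ± 14.6 and endothelial-like nuclei at 92.3 ± 31.0 came next. Of the 16 classes Dcdc2 was highest in stem/TA-like nuclei at 33.2 ± 7.30 and in cluster 14 at 27.0 ± 7.24. Cluster 21, with only 116 nuclei in all, is not one of the 16, and had Celsr1 at 177 ± 94.4 and Dcdc2 at 76.1 ± 101 from 18 and 3 UMIs in CON. Among the 16 classes Syt15 reached 26.2 ± 3.44 in endothelial-like nuclei, 17.4 ± 6.71 in cluster 14 and 17.1 ± 3.51 in stem/TA-like nuclei. In the NAC-like class (neurons and glia), where SAP rat 1 had only 7 nuclei, Syt15 stood at 165, 197 and 198 CPM in the CON rats.

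**Figure D2:**
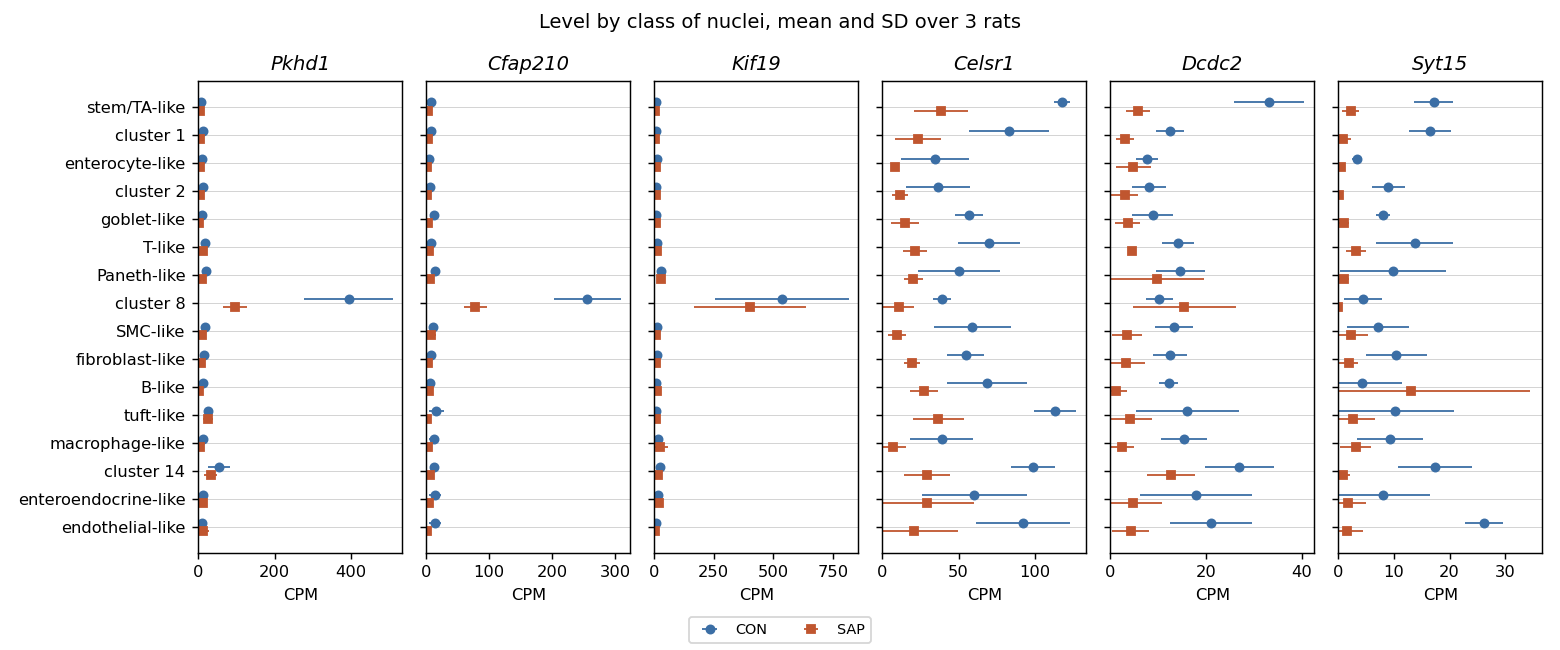
Level of each gene in CPM (horizontal axes, 1 scale per gene) in the 16 classes with at least 10 nuclei in every library, as the mean and SD over 3 CON rats (blue circles) and 3 SAP rats (orange squares). Pkhd1, Cfap210 and Kif19 stand out in cluster 8, while Celsr1, Dcdc2 and Syt15 are spread over many classes.

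Over these 16 classes the CON levels of Pkhd1, Cfap210 and Kif19 ran together, with Pearson's r of log2(level + 1) at 0.88 to 0.92 for their 3 pairs. Celsr1, Dcdc2 and Syt15 formed a second trio at 0.68 to 0.76, and the 9 pairs across the trios lay from -0.37 to -0.02. These are descriptions over 16 classes that share the same 3 CON libraries. By the same measure the genes most like Pkhd1 were LOC102551027 (0.95), Chst9 (0.94) and Tmem132d (0.92). Those most like Cfap210 were RGD1564712 (0.95), Rbm19 (0.95) and Dennd11 (0.94), and for Kif19 they were Habp2 (0.95), Gfra4 (0.94) and Notum (0.93). For Celsr1 they were Pde8b (0.92), Ska1 (0.91) and Cep89 (0.91), for Dcdc2 Cep112 (0.90), Ptpru (0.89) and Cux2 (0.88), and for Syt15 Cgas (0.89), Orc6 (0.88) and Htr4 (0.86).

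Low levels outside the leading classes stand beside free RNA, which gives UMIs in nuclei that do not express a gene. T-like nuclei served as the measure of it. With each nucleus thinned to 1200 UMIs, 1.56% of CON T-like nuclei held a UMI of Pkhd1, 1.02% of Cfap210, 1.02% of Kif19, 6.53% of Celsr1, 1.38% of Dcdc2 and 1.32% of Syt15. In cluster 8 those shares were 30.0% for Pkhd1, 26.4% for Cfap210 and 43.8% for Kif19. In stem/TA-like nuclei they were 12.7% for Celsr1, 3.44% for Dcdc2 and 2.07% for Syt15, above the T-like share, but 0.822% for Pkhd1, at the level of background. The median UMI count before thinning was 1918 for T-like, 1875 for cluster 8 and 1721 for stem/TA-like nuclei. Celsr1 in T-like nuclei was itself lower in every SAP rat, at 66.2, 92.1 and 51.9 CPM in CON and 16.3, 17.7 and 30.8 in SAP. The part of free RNA in that difference was not tested.

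Some class shares lay apart between the groups, though none passed the test below. Cluster 8 made up 3.75%, 5.61% and 4.40% of nuclei in the CON rats and 2.51%, 1.71% and 1.76% in the SAP rats, without overlap. The share was lower by 2.59 percentage points on average (limma on logit shares, adjusted p = 0.657 over 21 classes; exact permutation p = 0.1, two-sided, the smallest that 3 against 3 allow). The share of stem/TA-like nuclei was 20.1% ± 4.03 in CON against 11.5% ± 3.56 in SAP (SD, n = 3), again without overlap (adjusted p = 0.665 by limma; exact permutation p = 0.1). Goblet-like nuclei made up 12.4% ± 1.76 and 8.51% ± 1.596, also without overlap (adjusted p = 0.778 by limma; exact permutation p = 0.1). Enterocyte-like nuclei went the other way, at 9.04% ± 0.947 and 18.4% ± 8.41, without overlap as well (adjusted p = 0.665 by limma; exact permutation p = 0.1). None of the 21 shares passed the test. The clustering used genes other than the 6, some of which may themselves differ between the groups, and no test separated that from a change in cell number.

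Holding the makeup fixed left most of the difference for 5 of the genes. With each class weighted by its mean share of UMIs in CON, the log2 ratio of SAP over CON went from -1.74 to -1.46 for Pkhd1, from -2.18 to -1.55 for Cfap210 and from -1.73 to -1.53 for Dcdc2. It went from -1.80 to -1.71 for Celsr1 and from -2.53 to -2.41 for Syt15. In all 5 the SAP rats still lay below the CON rats. For Kif19 it went from -1.22 to -0.38, and the groups then overlapped, at 21.6, 39.7 and 46.4 CPM in CON and 22.2, 21.4 and 39.1 in SAP. Without one library at a time this Kif19 value ranged from -0.72 (without SAP rat 3) to -0.14 (without CON rat 3). With cluster 8 joined to the Paneth-like class, an alternative chosen after seeing the data, the values were -1.22 for Kif19, -2.12 for Cfap210 and -1.96 for Pkhd1.

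Leaving out 1 class at a time showed where the UMIs sat. Without cluster 8 the log2 ratio was -0.87 for Pkhd1, where the groups overlapped, -0.41 for Kif19, where they also overlapped, and -1.49 for Cfap210, where they did not. Leaving out any other class gave -1.86 to -1.69 for Pkhd1, -2.35 to -2.05 for Cfap210 and -1.36 to -1.17 for Kif19. The class that moved Dcdc2 most was stem/TA-like (-1.40 without it), and for Syt15 it was the NAC-like class (-2.93 without it). No class moved Celsr1 by much, with -1.73 without enterocyte-like nuclei and -1.87 to -1.73 without any other.

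**Figure D3:**
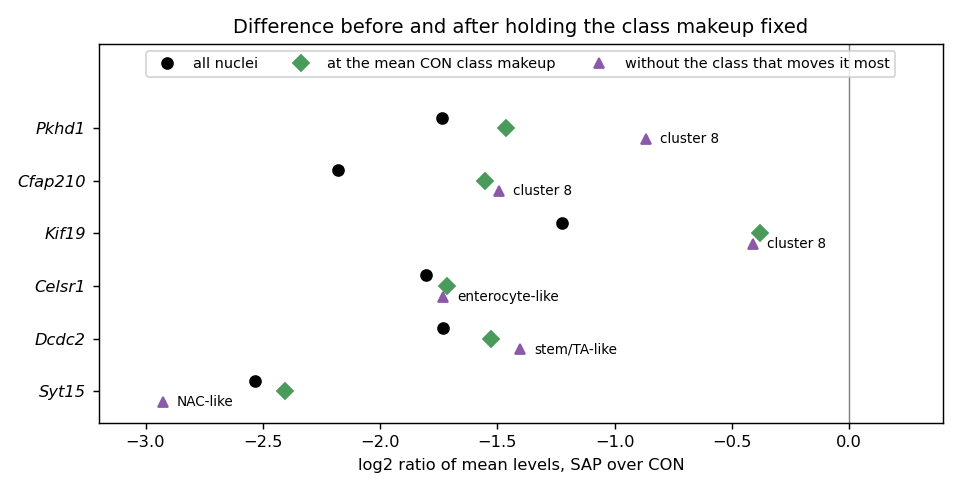
The log2 ratio of mean levels, SAP over CON, for each gene over all nuclei (black circles), with classes weighted by the mean CON makeup (green diamonds), and without the class whose removal moves it most (purple triangles, with the class named). Kif19 moves nearest to 0 at the CON makeup (-0.38), and Syt15 stays at -2.41.

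Within cluster 8 the genes that led it parted. Pkhd1 was at 304, 352 and 523 CPM in the CON rats and 117, 60.7 and 114 in the SAP rats, from 296, 252 and 416 UMIs against 16, 16 and 33. Cfap210 was at 195, 294 and 278 in CON and 87.5, 56.9 and 89.8 in SAP. For both, the highest SAP rat stayed well under the lowest CON rat. Kif19 was at 219, 645 and 746 in CON and 321, 220.2 and 666 in SAP, where every SAP rat lay between the lowest and the highest CON rat. Celsr1 there was at 39.4 ± 5.80 and 10.7 ± 10.4 (SD, n = 3), and Syt15 had 12 UMIs in CON and 0 in SAP, which allows up to 4.35 CPM over the 3 SAP rats. Dcdc2 overlapped, at 10.2 ± 2.84 and 15.4 ± 10.8. That limit lies above the 1.395 and 3.77 CPM of CON rats 2 and 3, so a lower Syt15 was not detectable here at this depth. As listed, 4 of the 6 genes were lower without overlap in cluster 8, or 3 without Syt15, beside 9.29% of the 8178 genes tested in it. That share comes after TMM scaling and a filter on low counts, and the levels of the 6 genes do not, so the comparison is loose.

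Counted against Kif19, the other members of the trio were fewer in every SAP rat. The Pkhd1 UMIs per Kif19 UMI in cluster 8 were 1.39, 0.545 and 0.702 in the CON rats and 0.364, 0.276 and 0.171 in the SAP rats. The Cfap210 UMIs per Kif19 UMI were 0.892, 0.457 and 0.373 in CON and 0.273, 0.259 and 0.135 in SAP. Among nuclei of cluster 8 with a Kif19 UMI, 71 of 141, 100 of 233 and 128 of 256 in the CON rats also held a Pkhd1 UMI, against 6 of 30, 4 of 36 and 16 of 97 in the SAP rats. A Cfap210 UMI was held by 42.6% to 44.2% of them in CON and 13.3% to 18.6% in SAP.

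Other leading genes of cluster 8 were named after their values were seen. They were ranked by CON values alone, which can favour a lower SAP level, so the values only describe. Gfra4 was at 725 ± 122 in CON and 627 ± 209 in SAP (CPM, SD, n = 3), Habp2 at 509 ± 169 and 467 ± 192, and Samd5 at 428 ± 126 and 372 ± 140, all with overlap. Lgr5 overlapped too, at 406 ± 125 and 267 ± 92.2. Dnah12, a dynein heavy chain of motile cilia, was at 164, 179 and 244 in CON and 117, 34.2 and 82.9 in SAP, without overlap. LOC102551027 was at 380.1 ± 95.4 and 195 ± 68.6, also without overlap, as was LOC120093050 at 442 ± 141 and 221 ± 68.8. Lef1 at 516 ± 113 and 217 ± 170 and Chst9 at 210 ± 63.0 and 125 ± 36.2 overlapped, as did Scube1 and Gpr158. Of the 8178 genes tested in cluster 8, 9.29% were lower without overlap after TMM scaling. SAP rats had 80, 102 and 139 nuclei in cluster 8, and CON rats 347, 351 and 370.

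**Figure D4:**
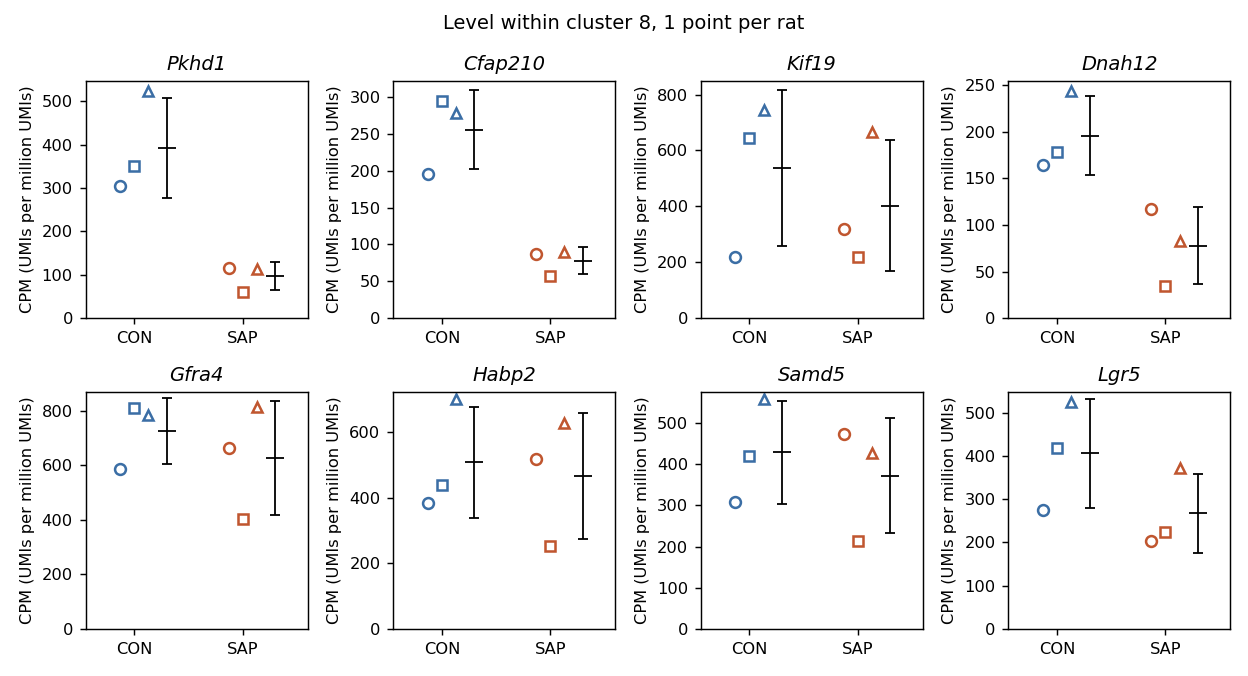
Level within cluster 8 in CPM of 3 of the 6 genes, the dynein Dnah12 and 4 other genes high in these nuclei, with 1 point per rat (circle, square and triangle for rats 1, 2 and 3) and the mean and SD in black. The groups do not overlap for Pkhd1, Cfap210 and Dnah12, and they overlap for Kif19, Gfra4, Habp2, Samd5 and Lgr5.

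In stem/TA-like nuclei 5 of the 6 genes were lower without overlap, and Pkhd1 overlapped. Of these 5, Cfap210 and Kif19 did not rise above the T-like share in this class in CON. For Cfap210 the share of thinned CON nuclei was 0.885% against 1.02% in T-like nuclei. Of the 12284 genes tested there 8.37% were lower without overlap, a share taken after TMM scaling, unlike the levels of the 6 genes. Celsr1 was at 112, 121 and 121 CPM in the CON rats and 28.0, 28.2 and 59.1 in the SAP rats. Dcdc2 was at 39.6, 25.3 and 34.8 in CON and 5.08, 3.84 and 8.59 in SAP. Syt15 was at 18.6, 19.7 and 13.1 in CON and 1.27, 1.28 and 4.04 in SAP, where SAP rats 1 and 2 had 1 UMI each. Summed cycling markers were lower in SAP as well. The 8 markers came to 550.3 to 814 CPM over all nuclei in CON and 99.1 to 537 in SAP. The 537 of SAP rat 3 came near the 550.3 of CON rat 3. Of the 8, 5 were lower without overlap, beside 4.79% of all tested genes with library totals. Their part in the lower levels of the 6 genes was not tested.

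Outside cluster 8 and stem/TA-like nuclei the picture was uneven. Tuft-like nuclei had Pkhd1 at 25.1 ± 5.27 CPM in CON and 26.0 ± 12.4 in SAP (SD, n = 3), from 34 and 42 UMIs. Yet 4.98% of thinned tuft-like nuclei held a Pkhd1 UMI in CON and 1.81% in SAP, pooled over rats. Celsr1 in the same nuclei was at 113 ± 13.7 and 36.8 ± 16.6. In Paneth-like nuclei Kif19 was at 26.6 ± 9.22 and 28.3 ± 9.14. Syt15 in NAC-like nuclei was at 147, 131 and 50.1 in the SAP rats, from 3, 9 and 14 UMIs, below the 165 to 198 of the CON rats. In cluster 1, a group of nuclei led by Slc5a8, Syt15 had 44, 31 and 22 UMIs in the CON rats and 0, 0 and 3 in the SAP rats.

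Over the 16 classes Celsr1 was lower without overlap in 15, Syt15 in 11 (cluster 8 among them, at 0 UMIs in SAP), Cfap210 in 10, Dcdc2 in 9, Pkhd1 in 4 and Kif19 in 2. These counts rest on levels without TMM scaling. In small classes they also rest on few UMIs. Cfap210 had 8 UMIs in CON and 1 in SAP in endothelial-like nuclei, and 15 and 2 in macrophage-like nuclei. At such depth a lack of overlap can arise from few counts alone. The shares of all genes come after TMM scaling and a filter on low counts that the genes here did not pass in every class. Of all genes tested in a class, those lower without overlap made up 10.9% in cluster 1, 9.36% in cluster 2, 9.29% in cluster 8, 10.6% in SMC-like, 8.25% in goblet-like and 8.37% in stem/TA-like nuclei. They made up 7.21% in enterocyte-like, 7.17% in endothelial-like, 7.1% in tuft-like, 7.06% in macrophage-like, 7.02% in T-like and 6.83% in enteroendocrine-like nuclei, 6.43% in cluster 14, 6.21% in fibroblast-like, 5.64% in Paneth-like and 5.13% in B-like nuclei. Classes above the T-like share in CON were picked by CON values alone, which can favour a lower SAP level, so counts in them only describe. Counting only those classes, the numbers were 5 of 5 for Celsr1, 4 of 4 for Syt15 and 5 of 7 for Dcdc2. They were 4 of 7 for Cfap210, 1 of 6 for Pkhd1 and 0 of 8 for Kif19. The single class for Pkhd1 was cluster 8. The 4 classes for Syt15 include endothelial-like nuclei, of which SAP rat 1 had 12. Both Kif19 classes, stem/TA-like and cluster 1, lay at or below the T-like share.

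Relatives of the 6 genes were read from lists with the 6 left out. By edgeR 0 of the genes on them were called, while DESeq2 called 2, Dnah12 (log2 -1.35, adjusted p = 0.0108) and Adgra3 (log2 -1.05, adjusted p = 0.0326). Of 118 tested genes of motile cilia, 3 were lower at an unadjusted p under 0.05 and 1 was higher, with a median log2 fold change of 0.24. Over all tested genes 4.47% were lower and 3.97% higher at that p, with a median of 0.02. Dnah12 was the first of the 3, at 16.4 ± 3.16 CPM in CON and 6.52 ± 1.44 in SAP (SD, n = 3; log2 -1.34, SE 0.31), and was highest in cluster 8. Efhb, a protein inside ciliary microtubules (log2 -1.45, SE 0.49), and Cfap418 (log2 -0.89, SE 0.38) were lower, and Dnaaf8, a factor of dynein assembly, was higher (log2 1.05, SE 0.43).

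The ciliated markers served only as a check and could not name a class, so whether a ciliated class exists was not tested. Spag16, a gene of the motile cilium list, was among the 10 leading genes of cluster 14. The defining gene of motile ciliated cells, Foxj1, stood at 0 to 0.257 CPM over the libraries, Tekt4 at 0 to 0.309 and Sntn at 0 to 0.309. The other 5 of the 8 ciliated markers were detected in every library, with Hydin at 3.51 to 17.5, Dnah5 at 0.360 to 6.53, Cfap43 at 0.438 to 5.35, Tekt1 at 1.56 to 4.41 and Rsph1 at 1.68 to 4.53 CPM. The 8 summed to 10.7, 10.8 and 37.2 in the CON rats and 11.5, 19.2 and 38.4 in the SAP rats, with overlap. In cluster 8 of the CON rats Foxj1 had 0 UMIs, and 3 of 110 motile cilium genes were raised at least 2-fold over the other nuclei, 2.73% beside 2.90% of 17748 genes. These 3 were Dnah12, Dnaaf9 and Cfap276. In the same comparison 7 of 78 vesicle fusion genes were raised, among them Cadps2, Syt13 and Syt17, and of 26 regulators 5 were, namely Rfx3, Foxa2, Foxa3, Sox9 and Atoh1. All were chosen after their values were seen. The pancreatic enzyme gene Prss1 stood at 0 UMIs in 5 of the 6 libraries and at 0.0515 CPM in SAP rat 3. The 6 acinar genes summed to 14.1 to 24.7 CPM in CON and 8.33 to 14.5 in SAP, of which Cela1 made up most, at 12.6 to 24.2 and 7.10 to 11.7. Cel was at 0.263 to 0.760 over the libraries and Pnlip at 0 to 1.75.

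The primary cilium and its transport system were covered by 102 tested genes. Of these, 11 were lower and 1 was higher at an unadjusted p under 0.05, and 26 were lower without overlap (25.5%, beside 9.06% of all genes). Their median log2 fold change was -0.25. Cep89, a protein of the distal appendages of the centriole, was at 53.9 ± 7.71 CPM in CON and 29.4 ± 10.2 in SAP (SD, n = 3; log2 -0.94, SE 0.29). Rpgr, a guanine exchange factor of the transition zone, stood at log2 -0.85 (SE 0.29) and Traf3ip1, a subunit of intraflagellar transport, at -0.82 (SE 0.28). Rab11a, a GTPase of recycling endosomes, was higher (log2 0.60, SE 0.24). Cep89 and Traf3ip1 were highest in stem/TA-like nuclei, the class whose share was lower in SAP. Within that class Cep89 was at 95.8 ± 7.68 CPM in CON and 45.8 ± 19.2 in SAP. Traf3ip1 was there at 58.4 ± 8.54 and 32.4 ± 10.4, and both were lower without overlap. The part of the class share in their lower levels was not tested.

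Planar polarity genes beside Celsr1 numbered 40, of which 3 were lower and 0 higher at an unadjusted p under 0.05 (edgeR). The 3 made up 7.5%, beside 4.47% of all tested genes. Adgra3, an adhesion receptor, was at 75.6 ± 6.86 CPM in CON and 37.7 ± 11.2 in SAP (SD, n = 3; log2 -1.05, SE 0.23). Intu, a planar polarity effector (log2 -0.80, SE 0.32), and Vangl2, a core component beside Celsr1 (log2 -0.99, SE 0.42), were the others. Adgra3 was highest in stem/TA-like nuclei, as was Celsr1. Within that class Adgra3 overlapped, at 126 ± 21.9 CPM in CON and 71.3 ± 41.5 in SAP, while Celsr1 did not. The part of the class share in the lower Adgra3 level was not tested.

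Among 79 genes of synaptotagmins and vesicle fusion, 6 were lower and 3 higher at that p. Cadps2, a priming factor of dense-core vesicles, was at 218 ± 64.3 CPM in CON and 122 ± 33.1 in SAP (SD, n = 3) and was highest in cluster 8. Rims2, a scaffold of release sites, stood at log2 -0.82 (SE 0.26) and Sytl2, a synaptotagmin-like protein highest in goblet-like nuclei, at -0.84 (SE 0.28). Syt12 went opposite to Syt15, at 3.20, 8.42 and 12.8 CPM in CON and 14.6, 38.2 and 18.5 in SAP. Vamp8, a SNARE of apical and lysosomal fusion (log2 1.07, SE 0.36), and Stx11 (log2 1.06, SE 0.44) were higher too. Syt12 and Vamp8 were highest in enterocyte-like nuclei, whose share was higher in SAP. Within that class Syt12 was at 25.2 ± 16.0 CPM in CON and 51.0 ± 18.1 in SAP. Vamp8 was there at 125 ± 62.1 and 185 ± 46.3, and both overlapped. The part of the class share in their higher levels was not tested.

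The remaining lists were short. Of 5 kinesins that shorten microtubules beside Kif19, 4 were lower at an unadjusted p under 0.05 (4.47% of all tested genes were). Among them were Kif24 (log2 -1.09, SE 0.38), Kif2c (log2 -1.26, SE 0.46) and Kif18b (log2 -1.16, SE 0.47). These 3 were highest in stem/TA-like nuclei, while Kif19 was highest in cluster 8. Within stem/TA-like nuclei all 3 overlapped between the groups. Kif24 was there at 61.5 ± 6.24 CPM in CON and 42.3 ± 23.8 in SAP (SD, n = 3). Kif2c was at 104 ± 15.2 and 60.8 ± 36.1, and Kif18b at 54.7 ± 11.9 and 29.7 ± 19.1. The part of the class share in their lower levels was not tested. None of 6 tested doublecortin genes passed that p in either direction. Of 24 genes of cystic disease 1 was lower, Alg8, a glucosyltransferase of the endoplasmic reticulum (log2 -0.86, SE 0.28). Among 26 regulators of transcription Gata6 (log2 -0.68, SE 0.23) and Rfx2 (log2 -1.07, SE 0.46) were lower. Of 13 genes that vary along the intestine 3 were higher, namely Amn and Cubn, which take up vitamin B12, and Lct, with all 3 overlapping between the groups.

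**Figure D5:**
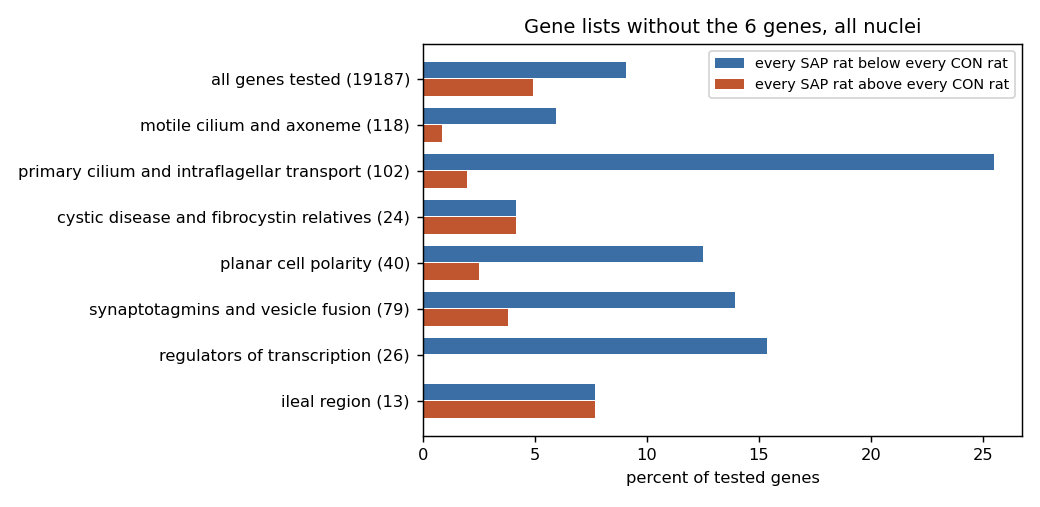
Percent of the tested genes of each list (number tested in brackets, the 6 genes left out) with every SAP rat below every CON rat (blue) or above (orange), over all nuclei and after TMM scaling. The primary cilium list stands at 25.5% lower, and all 19187 genes at 9.06%.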

How the data were processed

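The authors counted UMIs with dnbc4tools and deposited these counts per gene and barcode, with no normalization; the submitters' processing notes name Seurat 4.3.0 and mRatBN7.2. Nuclei were kept at 1200 UMIs or more, 500 genes or more and at most 5% mitochondrial UMIs, the limits of the study's methods. Clustering with scanpy 1.11.5 used 2000 variable genes without the 6 genes, mitochondrial, defensin, MHC and Reg3 genes and genes the study names, then 30 principal components, a re-implemented Harmony and Leiden at a resolution of 0.8. Scrublet's own threshold marked no nuclei, so none were removed.

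A cluster took a name when its marker score was at least 0.5 and led the next by at least 1.2, limits set after the clusters were seen, which kept cluster 8 apart from Paneth-like. Stem and cycling were joined. Counts were summed per library, or library and class, and fitted with edgeR 4.0.16, with DESeq2 1.42.0 as an alternative. The edgeR fit used filterByExpr to filter low counts, TMM scaling, a robust quasi-likelihood fit and Benjamini-Hochberg over all genes. It was run on simulated counts with 1 fixed dispersion for all genes, which says little about its power in these data. Shares were fitted with limma 3.58.1. The members and gene lists were chosen with earlier results of these data known. Named list genes are those called or, where none was, up to 3 per direction and list with the smallest unadjusted p under 0.05. The 3 most similar genes per member followed the same fixed rule, as did the motifs, of which 1 is not reported here. CpG sites were counted after that.

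A CON and an SAP library that carry the same replicate number deviated together, with correlations over 17739 genes of 0.614, 0.234 and 0.446, against -0.613 to 0.0530 for other numbers. The labels state no pairing, so a pairing by number is only a reading of these correlations. Whether they exceed chance was not tested, and the genes of a library are not independent replicates. Only snRNA-seq was analysed here.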

Additional observations from a re-analysis of the deposited data

How the results depend on the processing

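The 6 genes were chosen for being lower in SAP, so the sign of their log2 fold changes gives no support. All 150 alternative values of these fold changes were below 0, and 144 moved by less than 1 SD. The exceptions were Kif19 over all nuclei with at least 2000 UMIs per nucleus (-1.74) and, at the CON makeup, Cfap210 without integration (-1.73) or without CON rat 2 (-1.39, in a range of -1.68 to -1.39 without 1 library), beside Pkhd1 (-1.96), Cfap210 (-2.12) and Kif19 (-1.22) with cluster 8 joined to the Paneth-like class. Over all nuclei edgeR called 0 genes and DESeq2 193, with 0 to 1 without 1 library. Summed over classes edgeR called 14 genes, DESeq2 814, edgeR without the filter 2588 and edgeR with the replicate block 218, 103 of them in cluster 8, with 6 to 227 without 1 library (8 without CON rat 2, 204 without CON rat 3, 6, 29 and 227 without SAP rats 1, 2 and 3). Of 363 list genes of cilium, polarity and vesicles 24 were lower at an unadjusted p under 0.05, against 11 with library totals, 13 at 1% mitochondrial UMIs, 37 with the replicate block and 7 to 27 without 1 library (12, 7 and 12 without CON rat 1, CON rat 2 and SAP rat 1). Against 5 higher there were 2 with library totals, 2 without the filter, 2 at 1% mitochondrial UMIs, 9 with the block, 3 without marked doublets and 1 to 27 without 1 library (27 without CON rat 3). Lower without overlap were 50, with 28 by library totals and 55 to 90 without 1 library, and higher 8, with 9 to 48. Over all genes tested the shares moved too, from 9.06% to between 9.41% and 19.96% lower and from 4.90% to between 5.74% and 14.9% higher without 1 library. The causes were not tested. The replicate block changed no call over all nuclei and none of a share of nuclei. The shares of cluster 8 and stem/TA-like nuclei kept their side of the threshold, and the other shares were not recomputed. With 3 rats a group and 16 to 33 Pkhd1 UMIs per SAP rat in cluster 8, levels there are imprecise.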
